A study of Mus musculus with 2 samples.

Results

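The cytoplasmic ribosomal protein (RP) genes were read in sorted cells of embryo and yolk sac explants. They were taken by name: every row of the deposited table whose symbol starts with Rpl or Rps and a digit, with *Rpsa*, *Rplp0*, *Rplp1* and *Rplp2*, but without the 15 symbols that contain -ps and the 7 Rps6k kinases. This gave 84 of 11691 rows, 50 with a large subunit (Rpl) and 34 with a small subunit (Rps) symbol. Of these, 6 are copies or like-proteins (*Rpl22l1*, *Rps27l*, *Rpl7l1*, *Rpl36al*, *Rpl6l*, *Rps27rt*), and *Rps19bp1* encodes a protein that binds an RP rather than an RP. *Fau* and *Gnb2l1* encode RPs that the names do not catch, and they are given separately.

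Single-cell RNA sequencing was performed on C57/BL6 cells that were sorted as CD31+CD45+c-Kit+CD41- from explants, with 1 library of the embryo proper (Em-Ex) and 1 of the yolk sac (YS-Ex). CD31 marks endothelial and many blood cells, CD45 blood cells, and c-Kit is the receptor of SCF. Both tissues came from pooled concepti at E8.5 with 5 to 7 somite pairs, and both were cultured for 10 days (9 to 10 in the general protocol of the labels) with SCF, IL-3 and FLT3 ligand, each at 100 ng/ml. No gene was altered and no untreated group exists, so the tissue of origin is the only labelled difference. With 1 library per tissue, the tissue and the library cannot be told apart, no test was run, and all 95% intervals cover counting error only.

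A ribosome is built from a large and a small subunit of RNA and protein, which are assembled with the help of biogenesis factors in the nucleolus and need their proteins in nearly equal numbers. RP messenger RNAs are among the most abundant of any growing cell, and most begin with a run of pyrimidines (the 5′ TOP), through which mTOR signaling sets their translation. Erythroid progenitors are known to be sensitive to a shortage of single RPs, as in Diamond-Blackfan anemia.

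The table held 3504 Em-Ex and 3037 YS-Ex barcodes. The study shows as many cells as the table has barcodes, so the set used here is smaller. After the filter that the methods give (1000 to 5000 genes and at most 5% mitochondrial counts), 3071 and 2087 cells were left, with medians of 12341 and 11729 unique molecular identifiers (UMIs, counted transcripts). Cells were divided at 40 *Cpa3* UMIs per 10000, where *Cpa3* encodes a protease of mast cell granules. Cpa3-high cells numbered 2200 in Em-Ex and 1946 in YS-Ex, and Cpa3-low cells 871 and 141. A list of 10 mast cell granule genes, *Cpa3* among them, took 4.71% and 4.83% of the UMIs of Cpa3-high cells. *Cpa3* alone was at 130 and 174 UMIs per 10000 there, a part that the division itself sets. None of 4 endothelial genes was in the table. Between 30 and 50 *Cpa3* UMIs per 10000 lay 284 Em-Ex and 87 YS-Ex cells, so the division cuts a range and does not separate types. In total, 35 barcodes occurred in both libraries, and 33 Em-Ex and 32 YS-Ex cells carried one. Of the Cpa3-low cells, these were 18 in Em-Ex and 14 in YS-Ex.

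Start regions of 63 of the 84 genes were in the RefSeq promoter table (GRCm38.p6, the build of the counts). The following 5 are shown because their genes carry the differences below. Each line runs from 40 bases before the annotated start through the first 25 transcribed bases, on the gene's own strand, and capitals mark the longest unbroken run of C and T from 20 bases before the start onward.
*Rps27* (chr3:90213624-90213688, minus strand): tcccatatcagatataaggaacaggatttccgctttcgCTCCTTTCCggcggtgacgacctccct
*Rps27l* (chr9:66946046-66946110, plus strand): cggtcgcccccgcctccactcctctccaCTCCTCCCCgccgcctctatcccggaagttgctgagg
*Rpl22l1* (chr3:28805468-28805532, plus strand): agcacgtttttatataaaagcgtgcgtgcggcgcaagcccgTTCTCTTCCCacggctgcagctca
*Rps2* (chr17:24720023-24720087, plus strand): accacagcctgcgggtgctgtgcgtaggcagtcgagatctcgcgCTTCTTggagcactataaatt
*Rps12* (chr10:23787185-23787249, minus strand): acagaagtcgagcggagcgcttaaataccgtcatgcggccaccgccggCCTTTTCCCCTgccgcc

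The run was 9 bases in *Rps27*, 9 in *Rps27l*, 10 in *Rpl22l1*, 6 in *Rps2* and 11 in *Rps12*. From 20 bases before to 50 bases after the start, 73.0% of the 63 genes had a run of at least 8 pyrimidines, against 25.4% of the 27025 genes of the promoter table. The letters CTTTCC, on either strand of the 300-base promoter, were found in 34 of 63 genes (54.0%) against 29.3% of all. CCGGAAG, a core of ETS factor motifs, was found in 25 of 63 (39.7%) against 9.93% of all and 21.2% of the other genes in the count table. These matches describe letters and were not tested as sites.

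RP transcripts made up 33.8% of all UMIs in Em-Ex and 31.8% in YS-Ex. In Cpa3-high cells the shares were 32.2% and 31.7%, a ratio of 1.017 (1.016–1.018) of Em-Ex to YS-Ex. Single Em-Ex cells of this class ranged from 12.97% to 47.1% around a median of 31.9% (SD 4.56, n = 2200 cells), and YS-Ex cells from 13.6% to 49.6% around 31.1% (SD 5.11, n = 1946). Counting alone would give an SD of 0.464 and 0.455, so cells differed by far more than counting error. The cells of the 2 libraries overlapped over nearly the whole range.

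Cpa3-low cells devoted more of their UMIs to RPs. Their share was 36.7% in Em-Ex and, in YS-Ex, 34.0%, and the ratio of Cpa3-high to Cpa3-low cells was 0.877 (0.876–0.877) in Em-Ex and 0.932 (0.929–0.934) in YS-Ex. Part of this gap lay in the denominator: outside the mitochondrial genes and the mast cell granule list, the shares were 34.9% and 38.2% in Em-Ex and 34.5% and 35.6% in YS-Ex, and the ratios 0.915 and 0.970. Without the cells whose barcode occurred in both libraries, the ratios were 0.877 and 0.934.

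**Figure D1:**
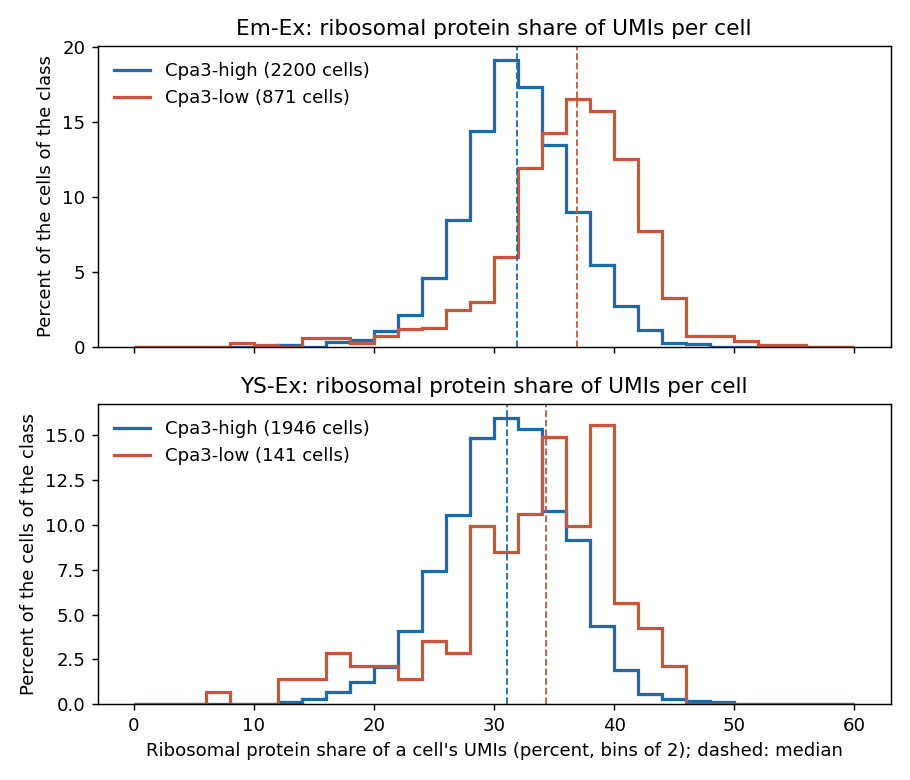
Distribution of the RP share of a cell's UMIs (x axis, percent, bins of 2 percentage points) as the percent of the cells of each class (y axis), for Em-Ex (top) and YS-Ex (bottom), with Cpa3-high cells in blue and Cpa3-low cells in red and each median dashed. The medians are 31.9% and 36.9% in Em-Ex and 31.1% and 34.3% in YS-Ex, and the distributions overlap widely.

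The share was lower at higher *Cpa3* levels. In Em-Ex it was 37.1% in the 564 cells under 10 *Cpa3* UMIs per 10000, 35.9% from 10 to 40, 33.5% from 40 to 80, 32.4% from 80 to 160 and 30.2% in the 674 cells above. In YS-Ex the corresponding values were 32.7% (50 cells), 34.9%, 34.6%, 33.0% and 29.9%, so the lowest class there, taken whole, did not stand above the others. Over single Cpa3-high cells, the RP share and the *Cpa3* level were correlated at r = -0.39 in both libraries, and at -0.28 and -0.31 with granule and mitochondrial genes out of the denominator. Both measures share each cell's total UMIs. Depth also moved with the share in YS-Ex. In 3 groups of about equal size by UMIs per cell, from shallow to deep, Cpa3-high cells had RP shares of 29.1%, 31.4% and 32.8% there, and of 31.3%, 32.7% and 32.2% in Em-Ex.

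Cpa3-low cells were not of 1 kind. The 165 Em-Ex cells with at least 10 UMIs per 10000 of *Mpo*, *Prtn3*, *Elane* and *Ctsg*, the granule proteases and peroxidase of neutrophil progenitors, had an RP share of 38.5%. The 49 Em-Ex cells at this limit for 8 macrophage genes had 26.5%, and the remaining 657 had 36.7%. In YS-Ex the same kinds held 12 cells at 40.1%, of which 6 carried a barcode also seen in Em-Ex, 14 cells at 19.5% and 115 cells at 35.2%. In both libraries the macrophage kind was thus lowest and the neutrophil granule kind highest, although the YS-Ex kinds are small. Of the remaining cells, those under 10 *Cpa3* UMIs per 10000 had 37.2% in Em-Ex (367 cells) and 36.0% in YS-Ex (26 cells). Without the 2 listed kinds, the lowest *Cpa3* class of YS-Ex thus stood above the higher *Cpa3* classes as well. *Elane* and *Ctsg* were at 0 throughout YS-Ex, so the neutrophil granule kind rests on *Mpo* and *Prtn3* there. No gene had UMIs in fewer than 30 barcodes of a library without being at 0, so these zeros need not mean absence.

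Large and small subunit transcripts moved together from cell to cell. Counted per UMI outside the RP genes, their sums were correlated at r = 0.965 over 2200 Em-Ex and 0.968 over 1946 YS-Ex Cpa3-high cells, which share the denominator. The ratio of large to small subunit UMIs was 1.404 in Em-Ex and 1.46 in YS-Ex Cpa3-high cells, and 1.29 and 1.38 in Cpa3-low cells. The correlation of a single member with the sum of the others, on the same scale, had a median of 0.681 in Em-Ex and 0.718 in YS-Ex and was highest for *Rpl32* (0.835 and 0.874). *Rps27l* was the lowest member of Em-Ex, at -0.04, and stood at 0.08 in YS-Ex. It was at 734 CPM (UMIs per 1000000 of the class) in Em-Ex, while the less abundant *Rpl15* (713 CPM), *Rps27rt* (430 CPM) and *Rpl6l* (232 CPM) had 0.425, 0.305 and 0.297 there. The 2 least abundant, *Rps19bp1* (47.7 CPM) and *Rpl7l1* (92.0 CPM), were at -0.01 and 0.01 in Em-Ex, and in YS-Ex, where both lay below *Rps27l*, at 0.01 and 0.06. Among the 71 YS-Ex members above 2000 CPM the lowest was *Rps27* (0.421).

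The pool was spread over many genes. The median member had 3824 CPM in Em-Ex against 3516 CPM in YS-Ex, and the 5 most abundant took 12.4% and 13.1% of RP UMIs. Because 1 tag is counted per captured transcript, these levels were not divided by length. *Rplp1*, an acidic protein of the ribosomal stalk, had 9327 CPM in Em-Ex against 10550 CPM in YS-Ex, and *Rpl41*, the smallest RP, at 9087 and 11154 CPM. *Rpl32*, *Rps18* and *Rpl13a* completed the 5 of Em-Ex, at 8303, 7734 and 7497 CPM. The least abundant members were mostly copies, with *Rps19bp1* at 57.2 CPM, *Rpl7l1* at 103 CPM, *Rpl6l* at 245 CPM and *Rps27rt* at 417 CPM in Em-Ex, and *Rpl15*, a large subunit RP, at 759 CPM. *Rpl6l* is a processed pseudogene in the annotation and *Rps27rt* a copy of *Rps27* with 1 exon, so reads of both can be confused with those of their parents. The rank order of members was similar in the libraries (Spearman 0.912, n = 84 genes).

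Between the tissues, few members differed by much. Among Cpa3-high cells, 0 of 83 members with at least 50 CPM were higher in Em-Ex by 1.5-fold or more and 2 were lower, whereas 8.83% of all 2615 genes above this minimum were higher and 18.4% lower. The median ratio of the members was 1.04, beside 1.07 over all genes. *Rps27rt* (chromosome 9: 114982366–114982739) had 430 CPM in Em-Ex against 709 CPM in YS-Ex, for a ratio of 0.606 (0.592–0.621). *Rps28*, a small subunit RP at chromosome 17: 33819027–33824562, was at 2642 and 4130 CPM, a ratio of 0.640 (0.634–0.646).

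The next lowest were *Rpl35* (0.707), *Rps27* (0.720) and *Rps29* (0.724), and *Rps27* had 3935 CPM in Em-Ex against 5462 CPM in YS-Ex. The highest were *Rps2* at 4646 and 3433 CPM (1.353), *Rpsa* at 3844 and 2871 CPM (1.34) and *Rpl8* at 3364 and 2571 CPM (1.31). *Rps2* and *Rpsa* encode proteins of the small subunit, *Rpsa* being also known as the laminin receptor. All other members above the minimum lay between the ratios of *Rps29* and *Rpl8*. Scaled by the median of all genes, *Rpl35* joined the lower members, for 3.

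The ratio followed the annotated transcript length. Members under 500 bases had a median ratio of 0.918 (19 genes), those of 500 to 700 bases 1.06 (23), of 700 to 1000 bases 1.12 (22) and of 1000 to 2000 bases 1.08 (16), with a Spearman correlation of 0.521 over 82 members. *Rps28*, at 271 bases, and *Rps27*, at 345 bases, were short, while *Rpl35* was low at 946 bases. Other genes had medians of 0.944 under 500 bases, 1.22 at 1000 to 2000 bases and 0.595 above 4000 bases (461 genes), for a correlation of -0.42 over 2437 genes. In Cpa3-low cells the members gave 0.515 over 83 genes. There 2 of 84 members were higher in Em-Ex by 1.5-fold (*Rpl7l1* and *Rps19bp1*; all genes: 21.8%) and 3 lower (*Rps27rt*, *Rps28* and *Rps27*; all genes: 22.4%), and the Em-Ex to YS-Ex ratios were correlated with those in Cpa3-high cells at r = 0.944 (n = 84 genes), from the same 2 libraries. Length thus moved with the library difference, and its part in the member differences was not tested.

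**Figure D2:**
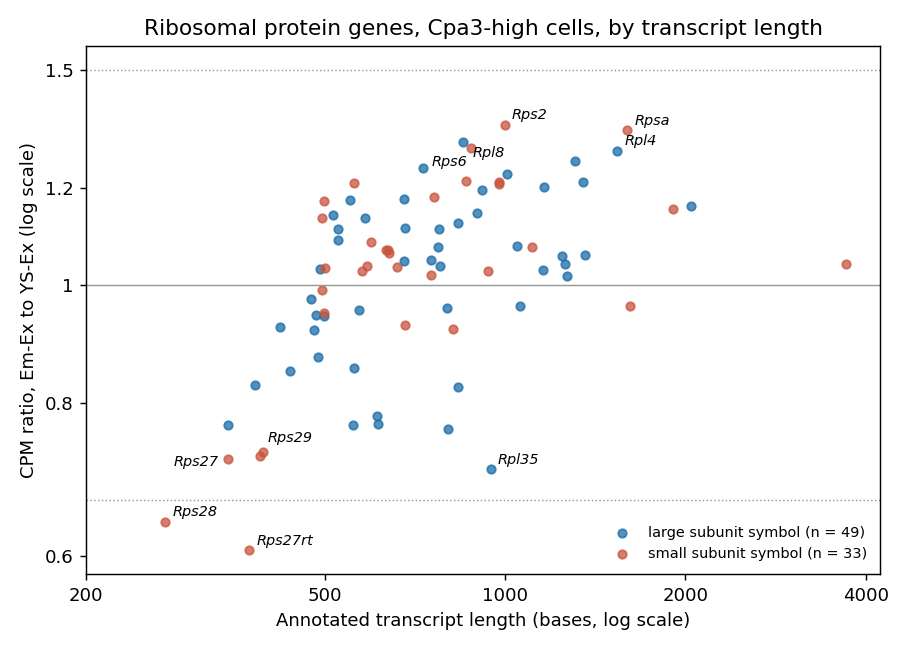
CPM ratio of Em-Ex to YS-Ex in Cpa3-high cells (y axis, log scale) against annotated transcript length in bases (x axis, log scale) for 82 RP members with a length, with large subunit symbols in blue and small in red. Dotted lines mark 1.5-fold either way, and only *Rps28* and *Rps27rt*, both short, lie beyond them.

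RPs outside the names and other parts of the translation machinery were also compared in these cells. There *Fau* had 4741 CPM in Em-Ex against 5370 CPM in YS-Ex (0.883) and *Gnb2l1* 1904 against 1567 CPM (1.21). Beside the 8.83% of all genes that were higher and 18.4% lower, 5 of 32 translation factors were higher and 2 lower by 1.5-fold, with a median of 1.28, and *Eif5a*, an elongation factor, was at 1.796. Of 47 mitochondrial RPs above the minimum, 5 were higher and 0 lower (median 1.23). Of 18 biogenesis genes, 3 were higher and 2 lower (median 1.18).

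Comparing Cpa3-high with Cpa3-low cells, most members were lower in Cpa3-high cells: 76 of 84 in Em-Ex, against 72 of 83 in YS-Ex. In Em-Ex, 3 members were lower by 1.5-fold or more and 0 higher (all genes: 25.1% lower, 18.5% higher). In YS-Ex 0 members passed in either direction (all genes: 11.3% lower, 9.28% higher). The median of the members was 0.871 in Em-Ex and 0.931 in YS-Ex, beside 0.900 and 0.968 over all genes. Relative to that median of all genes, 0 members passed 1.5-fold in Em-Ex.

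*Rps12*, a small subunit RP, was lowest in both libraries. It was at 2897 CPM in Cpa3-high and 4822 CPM in Cpa3-low cells of Em-Ex, a ratio of 0.601 (0.595–0.607), and had 2927 against 4066 CPM in YS-Ex, for 0.720 (0.703–0.738). *Rps20* was at 3673 and 5296 CPM in Em-Ex (0.694) and at 3531 and 4654 CPM in YS-Ex (0.759). *Rps19bp1* also passed 1.5-fold in Em-Ex, at 47.7 and 74.0 CPM (0.644).

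*Rps12* and *Rps20* were each highest in the same kind of Cpa3-low cell. The total RP share of the kinds had the same order. In Em-Ex it was 38.5% with the neutrophil granule list, 36.7% in the rest and 26.5% with the macrophage list. In YS-Ex these were 40.1%, 35.2% and 19.5%. The CPM values by kind therefore do not set these 2 members apart from the total. *Rps12* had 5790 CPM in those Em-Ex cells with the neutrophil granule list, 4596 CPM in the rest and 2851 CPM in those with the macrophage list, and at 6755, 3943 and 2369 CPM in YS-Ex. *Rps20* was at 5999, 5175 and 3198 CPM in Em-Ex. The rest of the Cpa3-low cells, which have neither list, thus stood above the 2897 CPM of *Rps12* in Cpa3-high cells as well. Globin and other erythroid genes (a list of 6) moved with this class, at a summed 2628 CPM in the rest against 93.2 CPM in Cpa3-high cells of Em-Ex, and 2369 against 213 CPM in YS-Ex, where *Alas2* was at 0. Their part in these differences was not tested.

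At the other end, *Rps9* had the highest ratio of YS-Ex, at 4738 against 4297 CPM (1.10), but 1.001 in Em-Ex, and *Rpl7l1* followed with 1.08 in YS-Ex but 0.757 in Em-Ex. Some large subunit members were higher in Cpa3-high cells of both libraries. *Rplp1* was at 9972 and 8177 CPM in Em-Ex (1.22) and 10578 and 10158 CPM in YS-Ex (1.04). *Rpl37a* had ratios of 1.199 and 1.07, and *Rpl10*, which joins the large subunit late in its assembly, 1.15 and 1.07. Over all 84 members the 2 libraries' ratios were correlated at r = 0.804, and 77 had the same direction. The libraries hold different cells, but members are not independent of each other.

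**Figure D3:**
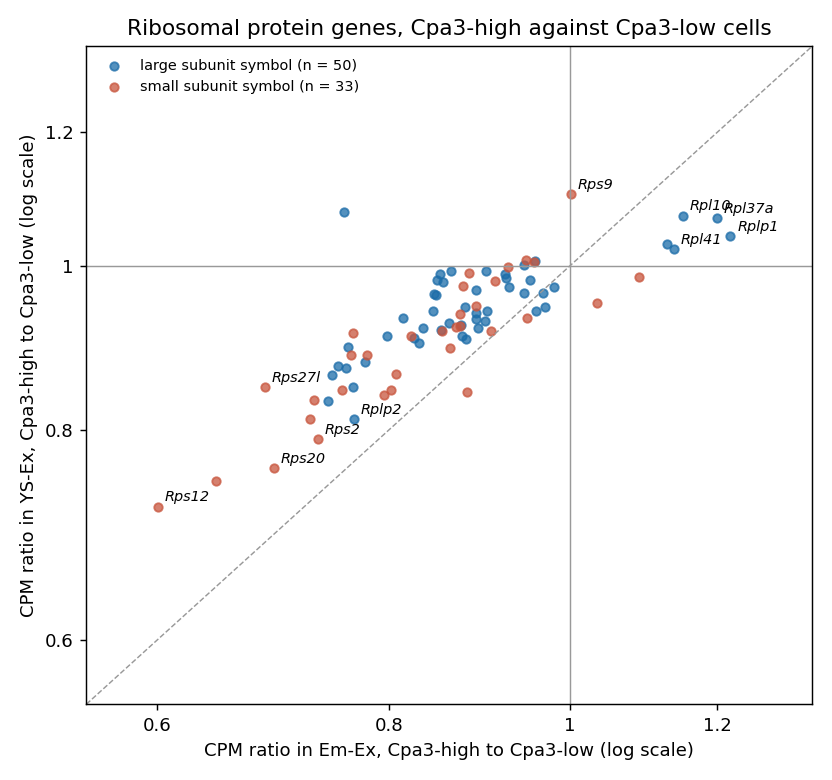
CPM ratio of Cpa3-high to Cpa3-low cells in Em-Ex (x axis, log scale) against the same ratio in YS-Ex (y axis, log scale) for the 83 RP members above the minimum, with the line of equal ratios dashed. *Rps12* (0.601 and 0.720) lies lowest, and *Rplp1* (1.22 and 1.04), *Rpl37a* and *Rpl10* are above 1 in both.

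Biogenesis genes were further apart than the RPs themselves. In Em-Ex, 26 of 30 above the minimum were lower in Cpa3-high cells by 1.5-fold (median 0.480), among them *Npm1*, a nucleolar chaperone, at 1483 against 3051 CPM, and *Ncl*, encoding nucleolin, at 435 against 984 CPM. In YS-Ex, 9 of 21 were lower (median 0.688). Cycling genes moved with these classes: 15 of 20 genes of an S phase list and 24 of 28 of a G2/M list were lower in Em-Ex Cpa3-high cells, and 13 of 18 and 24 of 30 in YS-Ex. Mitochondrial RPs were lower in 17 of 62 cases in Em-Ex against 2 of 45 cases in YS-Ex, and translation factors in 5 of 32 and 1 of 32, beside 25.1% and 11.3% of all genes.

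Cycling was then compared within the Cpa3-high cells of each library. Cells at or above percentile 75 of their library for the G2/M list (52 genes) or the S phase list (42 genes), per 10000 UMIs outside the RP genes, were called G2/M-high or S-high and set against cells below the median of both lists, called non-cycling here. The 3 classes held 550, 550 and 787 cells in Em-Ex and 487, 487 and 635 in YS-Ex, and 324 and 322 cells were in both high classes. The limits for G2/M-high and S-high were 34.7 and 22.5 list UMIs per 10000 in Em-Ex, but 21.7 and 15.8 in YS-Ex. The high classes are therefore not equal between the libraries. The lists take UMIs of their own, so the RP share was computed without them.

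The total share was compared first. In Em-Ex it was 31.6% in G2/M-high, 32.6% in S-high and 32.0% in non-cycling cells, for ratios of 0.986 (0.984–0.988) and 1.017 (1.015–1.019). In YS-Ex it was 32.2%, 32.3% and 31.0%, for ratios of 1.040 (1.038–1.041) and 1.041 (1.039–1.043). These differences were larger than counting error, and with 1 library per tissue no other error can be given. Depth and granule content moved with the classes, from 16370 median UMIs and 3.31% granule list UMIs in G2/M-high to 9782 and 6.39% in non-cycling Em-Ex cells. Without granule and mitochondrial genes in the denominator, the ratios became 0.9497 and 0.981 in Em-Ex and 1.010 and 1.014 in YS-Ex, so the S-high direction in Em-Ex turned. It also turned in the deepest of the 3 groups by UMIs per cell, at 0.977, which held 340 of the 550 S-high cells, against 1.06 in the shallowest.

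Single members differed by more, and in much the same order in both libraries. In G2/M-high cells of Em-Ex 3 of 84 members were higher by 1.5-fold and 0 lower (all genes: 28.2% higher, 9.34% lower), and in YS-Ex 2 of 83 were higher and 0 lower (all genes: 18.5% and 7.16%). The median of the members was 0.992 and 1.04, beside 1.16 and 1.09 over all genes. Relative to the median of all genes, *Rpl7l1* alone was higher in Em-Ex, and *Rps27* and *Rps27rt* were lower by 1.5-fold there. In YS-Ex only *Rps27rt* then passed, as lower, and members with a ratio between 1 and these medians change direction under this scaling.

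The clearest case was a pair of paralogues. *Rps27* (chromosome 3: 90212522–90213651) and *Rps27l* (chromosome 9: 66946086–66949516) encode closely similar small subunit proteins, and *Rps27l* is a known p53 target. *Rps27* was at 3247 CPM in G2/M-high and 4487 CPM in non-cycling Em-Ex cells (0.724, 0.713–0.735), and at 4604 and 5970 CPM in YS-Ex (0.771, 0.761–0.782). *Rps27l* differed the opposite way, at 942 against 573 CPM in Em-Ex (1.64, 1.58–1.70) and 825 against 516 CPM in YS-Ex (1.60, 1.54–1.66). *Rps27rt* went with *Rps27*, at ratios of 0.703 and 0.712.

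The levels were also read along 4 groups of about equal size by the summed cycle lists. From the lowest group to the highest, *Rps27* was at 4524, 4449, 3907 and 3287 CPM in Em-Ex and 6039, 5894, 5709 and 4604 CPM in YS-Ex. *Rps27l* was at 565, 591, 736 and 922 CPM in Em-Ex and 517, 508, 570 and 823 CPM in YS-Ex. Within each of the 3 groups by UMIs per cell, the G2/M-high ratio of *Rps27* was 0.775 to 0.820 in Em-Ex and 0.790 to 0.846 in YS-Ex. For *Rps27l* it was 1.51 to 1.64 and 1.29 to 1.56, so both directions held within each depth group, although cells of a group still differ in depth. All of these ratios of *Rps27*, and those of *Rps27l* in YS-Ex, lay nearer to 1 than the ratio over all depths.

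*Rps2* had 3624 CPM in the lowest and 5436 CPM in the highest of these 4 groups of Em-Ex, and 2669 and 4217 CPM in YS-Ex, with G2/M-high ratios of 1.44 and 1.505. Within the 3 groups by UMIs per cell its ratio was 1.24 to 1.31 in Em-Ex and 1.27 to 1.47 in YS-Ex, so it was past 1.5-fold in none of them. *Rpl22l1*, the paralogue of *Rpl22*, was at 1830 against 1319 CPM in Em-Ex (1.39) and 1629 against 1143 CPM in YS-Ex (1.43), with 1.63, 1.45 and 1.23 from the shallowest to the deepest group of Em-Ex and 1.66, 1.61 and 1.19 in YS-Ex. *Rpl22* itself was at 1568.5 against 1632.5 CPM (0.961) and 1686 against 1643 CPM (1.03). *Rpl7l1*, a like-protein of *Rpl7*, was at 121 against 65.6 CPM in Em-Ex (1.84, 1.66–2.05) and 89.7 against 62.5 CPM in YS-Ex (1.44, 1.27–1.62), and *Rpl7* had ratios of 1.06 and 1.10. *Rps19bp1* had 1.59 in both, although it was under 50 CPM in YS-Ex. *Rpl36al* differed little, at 1.08 and 1.09, and its parent *Rpl36a* stood at 0.923 and 1.002. *Rpl6l* had 0.926 and 0.984, and *Rpl6* 0.970 and 1.03. The paralogues with the larger ratios were thus *Rps27l*, *Rpl22l1* and *Rpl7l1*.

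Among the members that were lower in cycling cells, *Rpl10* was at 4553 against 5797 CPM in Em-Ex (0.785) and 4834 against 5903 CPM in YS-Ex (0.819). *Rpl37a* was at 5167 against 6471 CPM (0.799) and 6926 against 8223 CPM (0.842). Over 84 members the G2/M ratios of the libraries were correlated at r = 0.963, and 64 had the same direction. In S-high cells 3 of 84 members were higher in Em-Ex (*Rpl7l1*, *Rps27l* and *Rps19bp1*; all genes: 24.8%) and 1 of 83 in YS-Ex (*Rps27l*; all genes: 16.6%), and 0 were lower in either (all genes: 9.48% and 5.93%). These ratios gave r = 0.962 between the libraries, with *Rps27l* at 1.54 and 1.51 and *Rps27* at 0.763 and 0.8004.

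**Figure D4:**
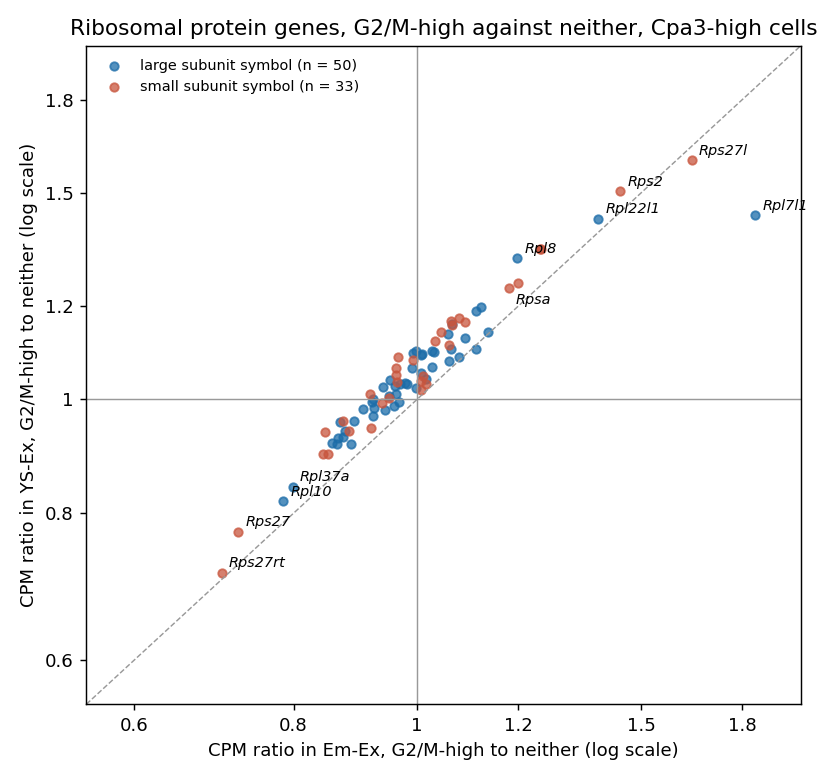
CPM ratio of G2/M-high to non-cycling Cpa3-high cells in Em-Ex (x axis, log scale) against YS-Ex (y axis, log scale) for the 83 RP members above the minimum in both, with the line of equal ratios dashed. *Rps27* and *Rps27rt* lie at the lower left and *Rps27l*, *Rps2*, *Rpl22l1* and *Rpl7l1* at the upper right, and most members sit slightly above the line.

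**Figure D5:**
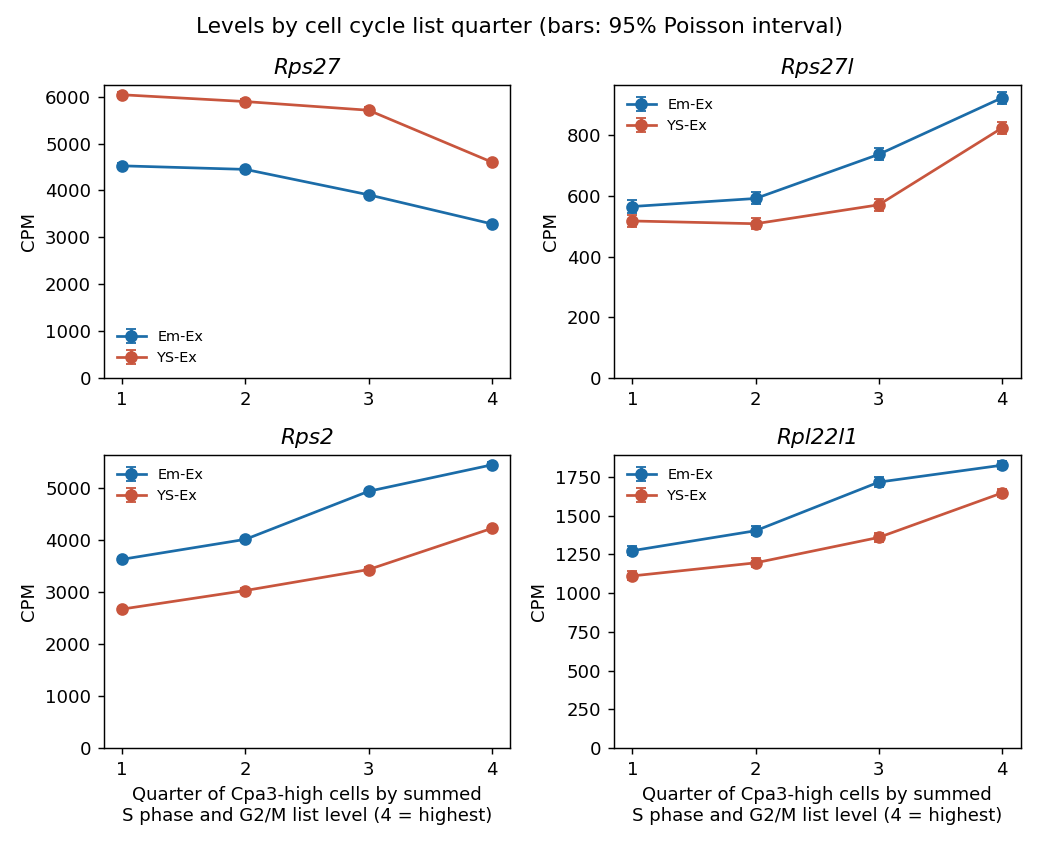
CPM (y axis, from 0) of *Rps27*, *Rps27l*, *Rps2* and *Rpl22l1* in 4 groups of about equal size of Cpa3-high cells ordered by their summed S phase and G2/M list level (x axis, 1 lowest), in Em-Ex (blue) and YS-Ex (red), with 95% Poisson intervals. From group 1 to 4, *Rps27* goes from 4524 to 3287 CPM and *Rps27l* from 565 to 922 CPM in Em-Ex, with the same directions in YS-Ex.

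Cpa3-low cells of Em-Ex gave a similar order of members between 218 cells at or above their own percentile 75 for the G2/M list and 274 cells below their own medians (r = 0.847 with the Cpa3-high cells of the same library, n = 84 genes). These medians, 61.3 G2/M list and 31.5 S phase list UMIs per 10000, lay above the limits of 34.7 and 22.5 for the high classes of Cpa3-high cells, so this lower class is not called non-cycling. There *Rps27* was at 3717 against 4457 CPM (0.834) and *Rps27l* at 1044 against 765 CPM (1.36). *Rplp1* was lowest in these cells, at 7601 against 10556 CPM (0.720). Depth and *Cpa3* moved with these classes, with median UMIs of 22377 against 10470.5, granule list shares of 0.455% against 1.797% and 7.19 against 17.8 *Cpa3* UMIs per 10000, and their part was not tested. Past 1.5-fold, 1 member was higher in G2/M-high cells (*Rps19bp1*; all genes: 26.6%) and 4 in S-high cells (*Rps19bp1*, *Rps27l* and *Rpl7l1* among them; all genes: 31.4%), and 0 were lower (all genes: 18% and 19.4%).

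Biogenesis genes were further apart than the RPs here too. Of those above the minimum, 19 of 23 were higher by 1.5-fold in G2/M-high cells of Em-Ex (median 2.17) and 12 of 19 in YS-Ex (median 1.87), with 0 lower in either. *Nop56*, a core protein of box C/D snoRNPs, was at 132 against 40.2 CPM in Em-Ex (3.30) and 120 against 35.9 CPM in YS-Ex (3.35). *Ncl* was at 624 against 262 CPM (2.38) and 864 against 396 CPM (2.18). Mitochondrial RPs were higher in 23 of 56 and 10 of 45 cases, and translation factors in 13 of 32 and 7 of 32, beside 28.2% and 18.5% of all genes. *Fau*, by contrast, had ratios of 0.764 and 0.792. Whether depth has a part in these list differences was not tested.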

How the data were processed

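Cells of 1 Em-Ex and 1 YS-Ex library were analysed. Per the labels, reads were demultiplexed with bcl2fastq 2.19.1.403 and counted with Cell Ranger 2.0.1 on mm10, and the authors deposited raw UMI counts per gene and cell. How reads shared by near-identical copies were counted is not given in the sources used here, so values of copies are uncertain. In each library a gene had UMIs in at least 30 barcodes or in none.

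Barcodes outside 1000 to 5000 genes or over 5% UMIs of 13 mitochondrial genes were removed, and doublets were not. UMIs were pooled per class as shares (exact Clopper-Pearson intervals) or CPM (exact Poisson), and ratios carry an exact binomial interval. A member was called at 1.5-fold with at least 50 CPM in 1 class. Members past 1.5-fold, the 3 highest and 3 lowest ratios per comparison, the 5 most and 5 least abundant members and paralogue pairs were named; others named for a pattern were chosen after their values were seen. Some items that these rules name are not reported here. Members and lists were chosen with earlier results of these data known. Other limits, filters, scalings and denominators were tried as alternatives. The calculations were tested on simulated data. Lengths and positions came from GENCODE M21 (GRCm38). Python 3.11.15, numpy 2.4.6, scipy 1.17.1 and matplotlib 3.10.9 were used.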

Additional observations from a re-analysis of the deposited data

Results flagged for a closer look

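The RP share outside the cycle lists moved in opposite directions with the G2/M class, with a ratio to non-cycling cells of 0.986 for Em-Ex and 1.040 for YS-Ex. The G2/M class began at 34.7 list UMIs per 10000 in Em-Ex and at 21.7 in YS-Ex, so it is not the same class in both. In groups of shallow, middle and deep cells, the ratios were 1.005, 0.992 and 0.952 for Em-Ex and 1.036, 1.009 and 1.003 for YS-Ex, so the opposition was not seen in shallow cells. With 1 library each, this difference was not tested.

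Some signal lay outside the comparisons. The 15 symbols with -ps took 0.233% of the UMIs of Em-Ex and 0.348% of those of YS-Ex, a ratio of 0.640 (0.633–0.646) in Cpa3-high cells. The barcodes left out for over 5% mitochondrial UMIs had an RP share of 32.2% in Em-Ex (353 barcodes) and 27.9% in YS-Ex (917 barcodes).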

How the results depend on the processing

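No paired analysis was possible because each tissue has 1 library, and no library was left out. Of 72 alternative values, 24 stayed within counting error or 1.5 times a count, 47 moved and 1 reversed. The causes were not tested. Alternatives marked "later" were chosen after seeing the data.

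Values of the RP share ratio follow in the order Em-Ex to YS-Ex, Cpa3-high to Cpa3-low in Em-Ex, then in YS-Ex. A *Cpa3* limit of 20 gave 1.02, 0.878 and 0.958, and one of 80 gave 1.009, 0.887 and 0.9095. Means of the cells' shares gave 1.03, 0.881 and 0.943. Without mitochondrial and granule genes they were 1.01, 0.915 and 0.970. Every deposited barcode gave 1.04 and 0.879 for the first and second, and up to 10% mitochondrial UMIs gave 1.03 for the first, as symbols with -ps added gave 1.01. Leaving out cells near the *Cpa3* limit (later) gave 0.867 in Em-Ex and 0.939 in YS-Ex, and leaving out both Cpa3-low kinds (later) 0.899 in YS-Ex.

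The cycle ratios follow in the order G2/M-high and S-high in Em-Ex, then in YS-Ex. Means of the cells' shares gave 0.997, 1.03, 1.05 and 1.05. The middle of 3 depth groups gave 0.992, 1.04, 1.01 and 1.01 (the deepest 0.952, 0.977, 1.003 and 1.004, the shallowest 1.005, 1.06, 1.04 and 1.04), up to 10% mitochondrial UMIs 0.994, 1.02, 1.06 and 1.05, and shares of all UMIs 0.977, 1.01, 1.03 and 1.03. Without granule and mitochondrial genes (later) they were 0.9497, 0.981 (reversed), 1.01 and 1.01. The upper 10% of the lists gave 0.981 for G2/M-high in Em-Ex and 1.02 and 1.06 in YS-Ex.

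At 2-fold, 0 members passed between tissues and 0 between *Cpa3* classes of Em-Ex. As shares of RP UMIs, or scaled by the median of all genes, 0 passed between those classes. In G2/M-high YS-Ex cells (later), 1 passed as shares of RP UMIs (*Rps27l*, higher) and 1 under the median scaling (*Rps27rt*, lower). The 3 G2/M calls of Em-Ex were 3 under each alternative (later), but scaling by the median of all genes left *Rpl7l1* alone of them.

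Depth limits *Rps19bp1* (57.2 CPM in Em-Ex) and *Rpl7l1* (103 CPM) most, which rest on the fewest UMIs.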
